A study of Mus musculus with 71 samples.

Results

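The genes described here are 30 markers of the oligodendrocyte lineage and of the myelin sheath that its mature cells make. They were listed by symbol and run from proteins of the mature sheath to markers of its precursors. Each was read on mouse expression arrays through the probe set (the group of short probes that reads 1 transcript) with the highest mean over all 71 arrays. Of the 30, 29 had a probe set naming 1 gene, out of 18193 genes measured in all. Trf, the transferrin gene, was left out because its only probe set also names a second gene. The 29 genes were read by 69 probe sets, 10 genes by 1 and 19 by several.

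Oligodendrocytes wrap axons of the central nervous system in compacted membrane, the myelin sheath, which is rich in lipid and in a small set of abundant proteins. They arise from dividing precursors that carry the growth factor receptor Pdgfra and the proteoglycan Cspg4, pass through a newly formed stage marked by Gpr17, Bcas1 and Enpp6, and then switch on the sheath genes under the transcription factor Myrf. Myelinated fibre bundles cross the striatum and lie under the cortex, so the amount of white matter in a dissected block of tissue differs from region to region.

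The arrays measured total RNA from hippocampus, hypothalamus, striatum and cortex of mice aged 10 to 14 weeks in which a floxed histone methyltransferase gene had been deleted by Camk2a-Cre, a driver active in postnatal forebrain neurons, chiefly excitatory ones. The mutants were Camk2a-Cre; GLP fl/fl (GLP is the protein of Ehmt1) and Camk2a-Cre; G9a fl/fl (G9a is the protein of Ehmt2), and their controls were GLP fl/fl or G9a fl/fl littermates matched for age and sex, without Cre. A second set of arrays measured polyribosome-bound mRNA, pulled down through a tagged ribosomal protein, from striatal medium spiny neurons. These came from Drd1-Cre; Drd1-bacTRAP; G9a fl/fl and Drd2-Cre; Drd2-bacTRAP; G9a fl/fl mice and from Drd1-bacTRAP; G9a fl/fl and Drd2-bacTRAP; G9a fl/fl controls, each sample a pool of 5 mice. Groups held 4 arrays, except 3 in the G9a hippocampus controls, 2 in each G9a cortex group and 3 in each pool group, which gives 36 mutant and 35 control arrays. The labels do not say whether the regions of a cohort came from the same animals.

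Values are the deposited intensities, scaled so that the median of every array is 1, taken as log2, so that 0 is the median probe set of an array. Differences are between group means on that scale, with the standard error (SE) of limma's linear model and p-values adjusted by Benjamini-Hochberg over all genes tested in a comparison. A gene is called changed at an adjusted p under 0.05. In whole tissue, fewer cells of a type and less RNA per cell cannot be told apart. The labels call the replicates biological, and the p-values measure the spread between these arrays only.

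The targeted genes were checked first. Ehmt1 stood in GLP mutants at 67.0% of controls in hippocampus, 89.8% in hypothalamus, 72.6% in striatum and 58.9% in cortex, of which the hypothalamus value was not called (adjusted p = 0.711). Ehmt2 stood in G9a mutants at 44.6% of controls in hippocampus, 49.2% in hypothalamus, 41.1% in striatum and 29.5% in cortex. In the neuron pools Ehmt2 was at 24.3% of controls in the Drd1 pools labelled mutant, with a wide error (adjusted p = 0.943), and at 94.5% in the Drd2 pools labelled mutant (adjusted p = 0.9997). The Drd2 pools are therefore called by their label below. The labels do not say which exons are deleted, so a probe set may read outside them.

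Promoter sequences of 20 of the 29 genes were found in the RefSeq table, 29 windows of 300 bases on the mouse build GRCm38.p6, each with 250 bases before and 50 bases after the annotated start. The windows of 3 sheath genes are shown because each holds a match to both motifs searched, with the precursor gene Pdgfra, which holds neither, beside them. They are Cnp at chr11:100574689-100574988 on the plus strand, Mag at chr7:30914873-30915172 on the minus strand (the most upstream of its 3 windows), Opalin at chr19:41077064-41077363 on the minus strand and Pdgfra at chr5:75152001-75152300 on the plus strand. Capitals mark the matches.
Cnp: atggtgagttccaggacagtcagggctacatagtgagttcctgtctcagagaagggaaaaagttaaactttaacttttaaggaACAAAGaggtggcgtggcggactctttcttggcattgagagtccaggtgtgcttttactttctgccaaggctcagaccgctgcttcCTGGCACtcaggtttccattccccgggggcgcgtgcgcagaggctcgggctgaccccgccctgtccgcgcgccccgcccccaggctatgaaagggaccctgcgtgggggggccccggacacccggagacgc
Mag: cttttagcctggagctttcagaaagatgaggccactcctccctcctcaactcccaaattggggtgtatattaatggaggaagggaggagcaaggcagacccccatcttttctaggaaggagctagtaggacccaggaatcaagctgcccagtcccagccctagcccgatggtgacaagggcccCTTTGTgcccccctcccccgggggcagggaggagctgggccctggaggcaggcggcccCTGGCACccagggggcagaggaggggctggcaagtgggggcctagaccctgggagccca
Opalin: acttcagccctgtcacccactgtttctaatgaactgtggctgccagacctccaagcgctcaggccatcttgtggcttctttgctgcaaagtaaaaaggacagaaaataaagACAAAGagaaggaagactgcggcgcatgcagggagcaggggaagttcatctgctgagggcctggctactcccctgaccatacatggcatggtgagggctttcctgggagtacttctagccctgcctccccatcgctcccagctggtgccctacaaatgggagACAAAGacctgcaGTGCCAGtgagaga
Pdgfra: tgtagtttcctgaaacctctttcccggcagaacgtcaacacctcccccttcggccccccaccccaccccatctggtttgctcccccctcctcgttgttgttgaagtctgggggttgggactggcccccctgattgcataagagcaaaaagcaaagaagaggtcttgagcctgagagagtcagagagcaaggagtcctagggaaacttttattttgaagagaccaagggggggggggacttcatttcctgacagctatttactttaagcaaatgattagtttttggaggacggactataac
The motifs were ACAAAG, the core bound by SOX factors such as Sox10, and CTGGCAC, the core reported for Myrf, both searched on both strands. In Cnp the SOX core began 167 bases before the start and the Myrf core 81 bases before it. In Mag a SOX core on the opposite strand began 67 bases and a Myrf core 9 bases before the start. Opalin held SOX cores at 139 bases before and at base 23 after the start, and a Myrf core on the opposite strand at base 36. The SOX core occurred in 10 of the 29 windows, which belong to 8 of the 20 genes, against 18.7% of 32851 windows of all genes. The Myrf core occurred in 4 of the 29 windows, which belong to 3 genes, against 5.01% of all windows. The windows of a gene can overlap, and 2 of the 3 Mag windows hold the same matches. Genes with neither the SOX nor the Myrf core include the sheath genes Mog, Mal, Cldn11 and Ermn as well as the precursor genes Pdgfra and Cspg4. The windows shown are therefore no contrast between sheath and precursor genes. The TATA core TATAAA occurred in 2 of the 29, against 13.6% of all windows. A match is a stretch of letters and says nothing of binding in these samples.

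In control mice, most of the myelin genes were higher in striatum than in each of the other 3 regions. The GLP fl/fl and G9a fl/fl control cohorts differed for some genes in every region. Their arrays did not overlap for 21 of the 29 genes in hypothalamus, 9 in hippocampus, 9 in striatum and 4 in cortex, against 49.7%, 36.2%, 41.6% and 20.9% of all 18193 genes. The hypothalamus had the most such members and is described first. Cldn11, the claudin that seals the layers of myelin, had 3.21, 2.84, 3.69 and 3.60 log2 units in the GLP fl/fl hypothalami, against 5.13, 4.89, 5.18 and 5.70 in the G9a fl/fl hypothalami. Mag, the adhesion molecule that faces the axon, had 4.00, 3.85, 4.74 and 4.01 in the GLP fl/fl hypothalami, against 5.60, 5.26, 5.53 and 5.80 in the G9a fl/fl hypothalami. The order was turned round for Mobp, a basic protein of compact myelin, at 9.04 to 9.26 in the GLP fl/fl and 8.24 to 8.40 in the G9a fl/fl hypothalami, and for the cytoskeletal protein gene Ermn, at 7.29 to 7.48 and 6.05 to 6.47. The cohorts did not overlap for any of these 4 genes. The labels do not say whether the cohorts were processed together, so regional comparisons are also given for each cohort alone.

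**Figure D1:**
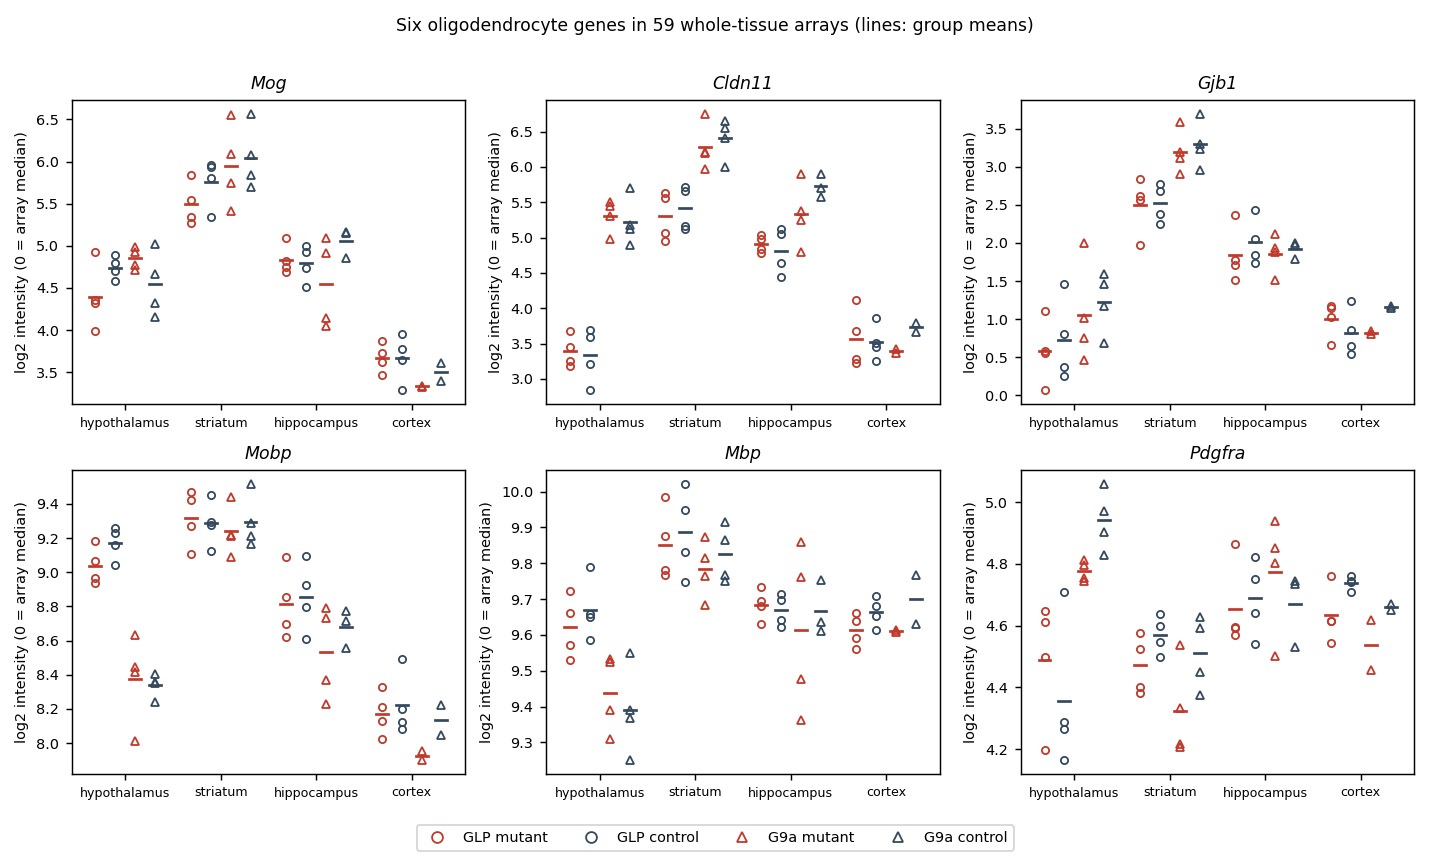
Log2 intensity (vertical axis, 0 = array median) of 6 myelin and lineage genes on every whole-tissue array, by region from hypothalamus to cortex, with mutants (red) left of controls; circles are the GLP cohort and triangles the G9a cohort. Mog, Cldn11 and Gjb1 are highest in striatum, and the control cohorts of the hypothalamus split for Cldn11, Mobp, Mbp and Pdgfra.

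The largest regional difference was between striatum and cortex. In striatal controls 25 of the 29 genes were higher than in cortical controls and 0 were lower, with a median difference of 1.11 log2 units, against 0.11 over all genes tested. Of all genes tested, 68.2% were called in this comparison, 41.3% higher and 26.9% lower. In 23 of the 29 the arrays of the groups did not overlap, against 39.4% of all genes tested. With the GLP fl/fl controls alone the count was 26, and with the G9a fl/fl controls alone 24.

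Mog, a glycoprotein of the outermost myelin layer, ranged from 5.34 to 6.56 log2 units in 8 striatal controls, with a median of 5.89, against 3.29 to 3.95 with a median of 3.63 in 6 cortical controls. Every striatal array lay above every cortical one, and the difference was 2.32 (SE 0.16, adjusted p = 1.81e-17, limma), a 5.00-fold higher intensity in striatum. Cldn11 ranged from 5.12 to 6.65 in striatum with a median of 5.86, against 3.26 to 3.86 with a median of 3.59 in cortex, a difference of 2.29 (SE 0.16, adjusted p = 3.88e-17) or 4.88-fold. Gjb1, a connexin of oligodendrocyte gap junctions, ranged from 2.24 to 3.69 in striatum with a median of 2.87, against 0.54 to 1.24 with a median of 1.00 in cortex, a difference of 1.92 (SE 0.20, adjusted p = 3.44e-12). These 3 genes of the sheath surface and its junctions thus showed no array in common between the regions. Gsn, the actin-severing protein gelsolin, differed by 1.94 (SE 0.19), and Apod, a secreted lipid carrier, by 1.65 (SE 0.15).

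By role, all 6 genes of the compact and non-compact myelin membrane were higher in striatum than in cortex, from 0.17 for Mbp to 1.65 for Mal, a proteolipid that sorts myelin membrane. All 7 genes of sheath surface and cytoskeleton were higher, as were both junction genes and Myrf (difference 1.21, SE 0.12). Of 5 enzyme genes, 4 were higher, among them Ugt8a (1.27), which makes galactosylceramide, Aspa (1.17), which frees acetate from N-acetylaspartate, and Fa2h (0.83), which hydroxylates the fatty acids of myelin lipids. The exception was Car2, a carbonic anhydrase, at -0.04 (SE 0.09, adjusted p = 0.69). Its 2 cohorts went opposite ways, at 0.35 with the GLP fl/fl controls alone and -0.44 with the G9a fl/fl controls alone.

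The precursor and newly formed stages did not move as 1 block. Bcas1 (0.66) and Enpp6 (0.97), genes of newly formed oligodendrocytes, were higher in striatum than in cortex. Gpr17, of the same stage, was not called (-0.14, SE 0.20). Neither precursor gene was called, with Pdgfra at -0.16 (SE 0.08, adjusted p = 0.0611) and Cspg4 at 0.10 (SE 0.14). Cspg4 stood at -0.09 with the GLP fl/fl controls alone and at 0.28 with the G9a fl/fl controls alone. Pdgfra ranged from 4.37 to 4.64 in striatum with a median of 4.57, against 4.65 to 4.76 with a median of 4.73 in cortex. Every striatal array lay below every cortical one for this Pdgfra probe set, although the difference did not pass the test over all genes. As the mean of all its probe sets, Pdgfra stood in hypothalamus 0.27 above cortex and 0.02 above striatum. That mean thus places striatum above cortex, so the order of these regions for Pdgfra depends on the probe set. As such a mean Cspg4 was lower in striatum than in cortex, at -0.23 (adjusted p = 0.0431, limma). The 95% intervals of the Gpr17, Pdgfra and Cspg4 differences lie within 1 log2 unit of 0.

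Striatum also stood above hippocampus, with 26 of 29 genes higher, 0 lower and a median difference of 0.64, against -0.03 over all genes tested. Of all genes tested, 52.7% were called, 24.2% higher and 28.5% lower, and the arrays did not overlap for 7 members, against 17.9% of all genes. Aspa differed by 1.17 (SE 0.12), Ugt8a by 1.13 (SE 0.16), Ppp1r14a, an inhibitor of myosin phosphatase, by 1.08 (SE 0.16), and Apod and Enpp6 by 1.06 each. The 3 genes not called were again Gpr17 (-0.03), Cspg4 (-0.13) and Pdgfra (-0.14). The count was 21 with the GLP fl/fl controls alone and 23 with the G9a fl/fl controls alone.

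Hippocampus and cortex differed less. In hippocampus 13 genes were higher and 1 was lower than in cortex, with a median of 0.28, against 0.13 over all genes tested, of which 63.9% were called, 41.2% higher and 22.6% lower. The arrays did not overlap for 10 members, against 38.2% of all genes. Cldn11 (1.65, SE 0.17), Mog (1.34, SE 0.17), Gsn (1.30, SE 0.19), Ndrg1 (1.07, SE 0.09) and Gjb1 (0.98, SE 0.20) had the largest differences. Cldn11 ranged from 4.44 to 5.89 in 7 hippocampal controls with a median of 5.13, above all 6 cortical controls. The differences over both cohorts were smallest for Aspa (0.00), Cryab (0.01) and Fa2h (0.01), whose cohorts went opposite ways. With the GLP fl/fl controls alone Aspa was at 0.37, Cryab at 0.35 and Fa2h at 0.34, and with the G9a fl/fl controls alone at -0.37, -0.34 and -0.32, none of them called. Car2 was lower in hippocampus (-0.32, adjusted p = 0.00291), but with the GLP fl/fl controls alone it was at 0.04. Whole-group counts were 16 with the GLP fl/fl controls alone and 10 with the G9a fl/fl controls alone.

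In hypothalamus the genes were low beside striatum, with 25 of 29 lower, 0 higher and a median of -0.58, against -0.04 over all genes tested. Of all genes tested, 73.1% were called, 33.6% higher and 39.5% lower, and the arrays did not overlap for 6 members, against 23.4% of all genes. Gjb1 differed by -1.93 (SE 0.17), Gsn by -1.88 (SE 0.17), Mag by -1.68 (SE 0.13), Cldn11 by -1.63 (SE 0.15) and Mog by -1.26 (SE 0.15). Mag ranged from 3.85 to 5.80 in 8 hypothalami with a median of 5.00, against 6.16 to 7.29 with a median of 6.46 in 8 striata, so that the regions did not overlap for Mag in spite of the split between cohorts. Car2 (-0.06), Pdgfra (0.11) and Qdpr (-0.19), the last a pteridine reductase, differed least over both cohorts. Pdgfra was at -0.21 with the GLP fl/fl controls alone and at 0.43 with the G9a fl/fl controls alone, and Car2 at 0.07 and -0.20. Qdpr was at -0.46 as the mean of all its probe sets. The count was 18 with the GLP fl/fl controls alone and 26 with the G9a fl/fl controls alone.

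Against cortex and hippocampus the hypothalamus gave a mixed picture that depended on the cohort. Compared with cortex, 15 genes were higher and 3 lower, with a median of 0.31, against 0.07 over all genes tested. Of all genes tested, 74.1% were called, 40.7% higher and 33.4% lower, and the arrays did not overlap for 2 members, against 38.2% of all genes. Mog (1.06), Ermn (0.97), Aspa (0.88), Opalin (0.81), a glycoprotein found at paranodal loops, and Apod (0.79) were the most different. Mbp (-0.15, adjusted p = 0.016), Fa2h (-0.40, adjusted p = 0.0436) and Cspg4 (-0.57, adjusted p = 0.000414) were lower, and Gjb1 (-0.01), Cnp (0.02) and Pdgfra (-0.05) differed least over both cohorts. Mbp was at 0.0052 with the GLP fl/fl controls alone, at -0.31 with the G9a fl/fl controls alone, and at 0.0895 as the mean of all its probe sets. Pdgfra was at -0.38 with the GLP fl/fl controls alone and at 0.28 with the G9a fl/fl controls alone, and Cnp at -0.19 and 0.23. The G9a fl/fl controls alone gave 9 calls, 7 higher and 2 lower, and the GLP fl/fl controls alone gave 23. Fa2h stood at 0.22 and Cspg4 at 0.17 with the G9a fl/fl controls alone. Ermn was at 1.70 with the GLP fl/fl controls alone and at 0.25 with the G9a fl/fl controls alone, and Aspa at 1.60 and 0.15.

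Compared with hippocampus, 7 genes were higher in hypothalamus and 11 lower, with a median of -0.02, against -0.09 over all genes tested. Of all genes tested, 72.4% were called, 31.2% higher and 41.2% lower, and the arrays did not overlap for 1 member, against 24.4% of all genes. Gsn (-1.25), Gjb1 (-0.99), Cldn11 (-0.99) and Cspg4 (-0.79) were lower, and Aspa (0.88), Ugt8a (0.55), Ermn (0.53), Opalin and Evi2a (0.45 each), Bcas1 (0.26) and Car2 (0.22) were higher. Of these, only Gjb1 (-0.70), Aspa (0.53) and Ugt8a (0.66) were called with the G9a fl/fl controls alone. There Gsn was at -0.55, Cldn11 at -0.50, Cspg4 at -0.24, Ermn at 0.21, Opalin at 0.16, Evi2a at 0.14, Car2 at 0.06 and Bcas1 at 0.03. With the GLP fl/fl controls alone Gsn was at -1.94, Cldn11 at -1.48 and Cspg4 at -1.34. As the mean of all probe sets, Ugt8a (0.09) and Bcas1 (0.01) were not called. Mobp (-0.01), Qdpr (-0.02) and Pdgfra (-0.03) differed least over both cohorts. Mobp was at 0.32 with the GLP fl/fl controls alone and at -0.34 with the G9a fl/fl controls alone, and Pdgfra at -0.33 and 0.27, each of these called. As the mean of all probe sets of a gene, Qdpr was at -0.25 and Mobp at 0.30, both called. The split of 7 higher and 11 lower became 12 and 6 when each array was centred on the genes tested, and 13 and 6 after quantile normalization. The G9a fl/fl controls alone gave 9 calls, 4 higher and 5 lower, and the GLP fl/fl controls alone 21.

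**Figure D2:**
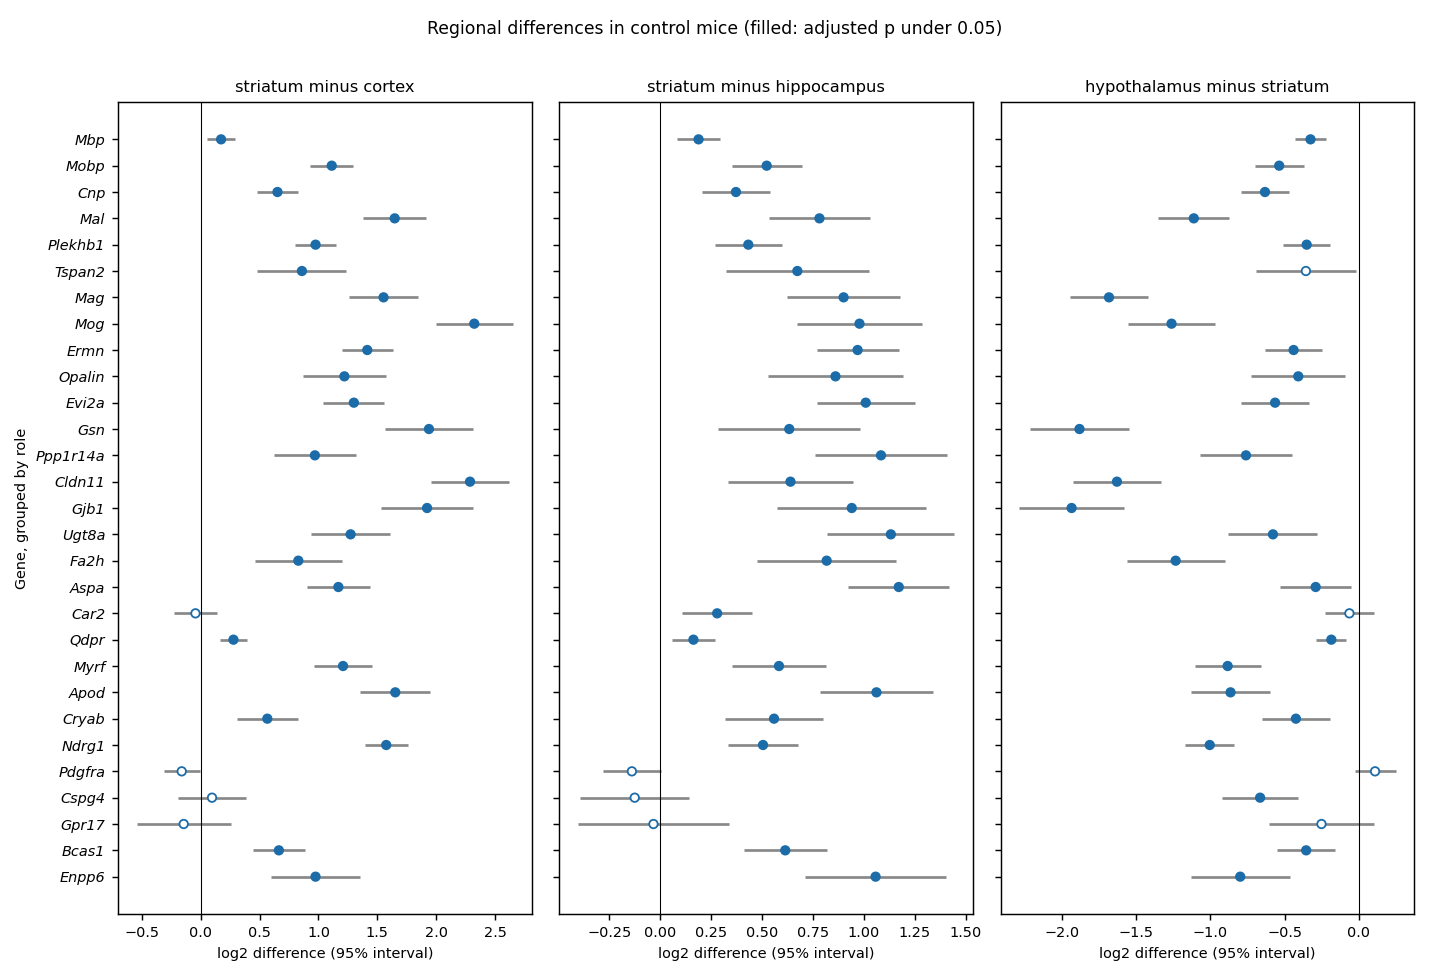
Difference in log2 intensity (horizontal axis) with its 95% interval for each of the 29 genes in control mice, for striatum minus cortex, striatum minus hippocampus and hypothalamus minus striatum; filled points have an adjusted p under 0.05. The sheath genes lie right of 0 in the first 2 panels and left of it in the last, with Mog at 2.32 in striatum minus cortex and Pdgfra between -0.16 and 0.11 in the 3 panels.

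A list of 40 other oligodendrocyte genes, of which 36 could be tested, moved alongside. In striatum 30 were higher and 2 lower than in cortex (median 0.99), and 28 were higher and 2 lower than in hippocampus (median 0.61). In hypothalamus 4 were higher and 27 lower than in striatum (median -0.60). Genes of other cells differed as well. The microglial list had 12 of 16 higher in striatum than in cortex and 14 of 16 lower in hypothalamus than in striatum, and its mean level per array ranged from 3.23 to 3.88 in striatal controls and from 2.65 to 2.98 in cortical controls. The choroid plexus list averaged -0.52 to 3.43 over striatal controls, against -0.81 to -0.39 over cortical controls. Their part in the regional values was not tested. The 6 regional comparisons reuse the same control arrays and are not independent of each other.

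The size of a difference varied between bright and dim probe sets of a gene, in a direction that was not the same for every gene. The Mbp probe set used here had a mean of 9.71 log2 units, ranked 11th by median among the probe sets of an array and stood at a median of 71.4% of the array maximum. It differed by 0.17 between striatum and cortex, and the bright Mbp probe sets by 0.10 to 0.43, while the dim Mbp probe sets differed by 0.86 to 1.52. The same held for Cnp, a phosphodiesterase of non-compact myelin, at 0.65 for its brightest and 0.93 and 0.99 for its dimmer probe sets, for the small heat shock protein gene Cryab, at 0.57 for the brightest and 1.00, and for Qdpr, at 0.28 for the brightest and 0.86. Other genes went the opposite way. As the mean of all its probe sets, Gsn differed by 1.07 between striatum and cortex, against 1.94 for its brightest, and Apod by 1.27, against 1.65. Ndrg1 differed by 0.49 between hippocampus and cortex as that mean, against 1.07 for its brightest. Differences of all these genes given elsewhere are those of the brightest probe set unless stated, and the reason for the gaps was not tested.

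**Figure D3:**
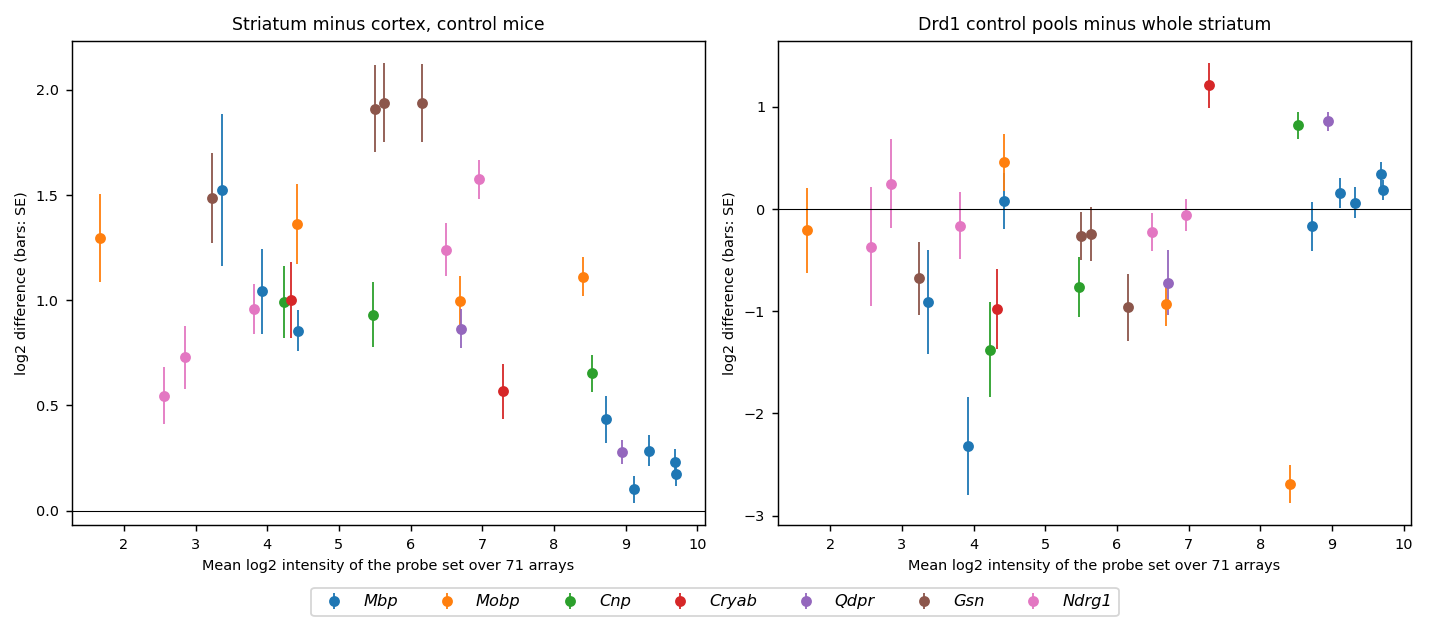
Difference in log2 intensity (vertical axis, bars are SE) against mean log2 intensity (horizontal axis) for each probe set of 7 genes, for striatum minus cortex and for Drd1 control pools minus striatum. The dim Mbp probe sets reach 1.52 in the first panel while the bright ones stay at or below 0.43, and in the second panel probe sets of Cnp, Cryab and Mobp fall on both sides of 0.

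Between mutants and controls, 0 of the 29 genes were called at an adjusted p under 0.05 in any of the 8 tissue comparisons or the 2 comparisons of neuron pools (limma). In 3 of these comparisons, GLP hypothalamus and the Drd1 and Drd2 pools, the targeted gene itself was not called. The share of all genes tested that was called was 2.05% in GLP hippocampus, 1.01% in GLP hypothalamus, 1.67% in GLP striatum and 1.54% in GLP cortex. It was 2.72% in G9a hippocampus, 2.34% in G9a hypothalamus, 3.02% in G9a striatum and 0.728% in G9a cortex, and 0.0249% in the Drd1 and 0.0165% in the Drd2 pools. At an unadjusted p under 0.05, the members passing numbered 1, 4, 3 and 0 in GLP hippocampus, hypothalamus, striatum and cortex, against 7.35%, 9.41%, 10.3% and 6.82% of all genes tested. In the same regions of G9a mutants they numbered 2, 1, 0 and 0, against 12%, 16.2%, 12.6% and 3.19%. In the pools they numbered 3 in the Drd1 and 0 in the Drd2 comparison, against 2.34% and 1.4%. With arrays weighted by their quality, members called numbered 2 in GLP hippocampus, 2 in G9a hippocampus, 4 in G9a hypothalamus and 1 in G9a cortex, against 6.83%, 6.13%, 26.3% and 4.38% of all genes tested.

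The tissue arrays bounded the changes more narrowly than the pool arrays did. The bound of the 95% interval farthest from 0 had a median over the 29 genes of 0.42 log2 units in G9a striatum to 0.74 in G9a cortex. Changes smaller than these bounds were not excluded. The 95% interval of the difference lay within 1 log2 unit of 0 for all 29 genes in 7 of the 8 tissue comparisons, and for 28 in G9a cortex, where that of Gjb1 reached 1.04. In the pools it did so for 15 genes in the Drd1 and 14 in the Drd2 comparison, with Pdgfra reaching 2.18 in the Drd1 pools. The median difference of the members was 0.02 in GLP hippocampus, -0.12 in GLP hypothalamus, -0.09 in GLP striatum and -0.04 in GLP cortex, against -0.02, 0.00, -0.02 and 0.00 over all genes tested in those comparisons. In G9a mutants the median was -0.06 in hippocampus, 0.00 in hypothalamus, -0.08 in striatum and -0.17 in cortex, against 0.03, 0.01, 0.00 and -0.02 over all genes tested. In GLP mutants the difference was above 0 for 16 members in hippocampus, 9 in hypothalamus, 6 in striatum and 10 in cortex, against 43.5%, 49.7%, 44.8% and 50.8% of all genes tested. In G9a mutants it was above 0 for 10 in hippocampus, 15 in hypothalamus, 4 in striatum and 4 in cortex, against 57.8%, 52.6%, 49.1% and 43.4%. The members vary together within a group, as described further on, so these counts are not counts of independent genes.

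**Figure D4:**
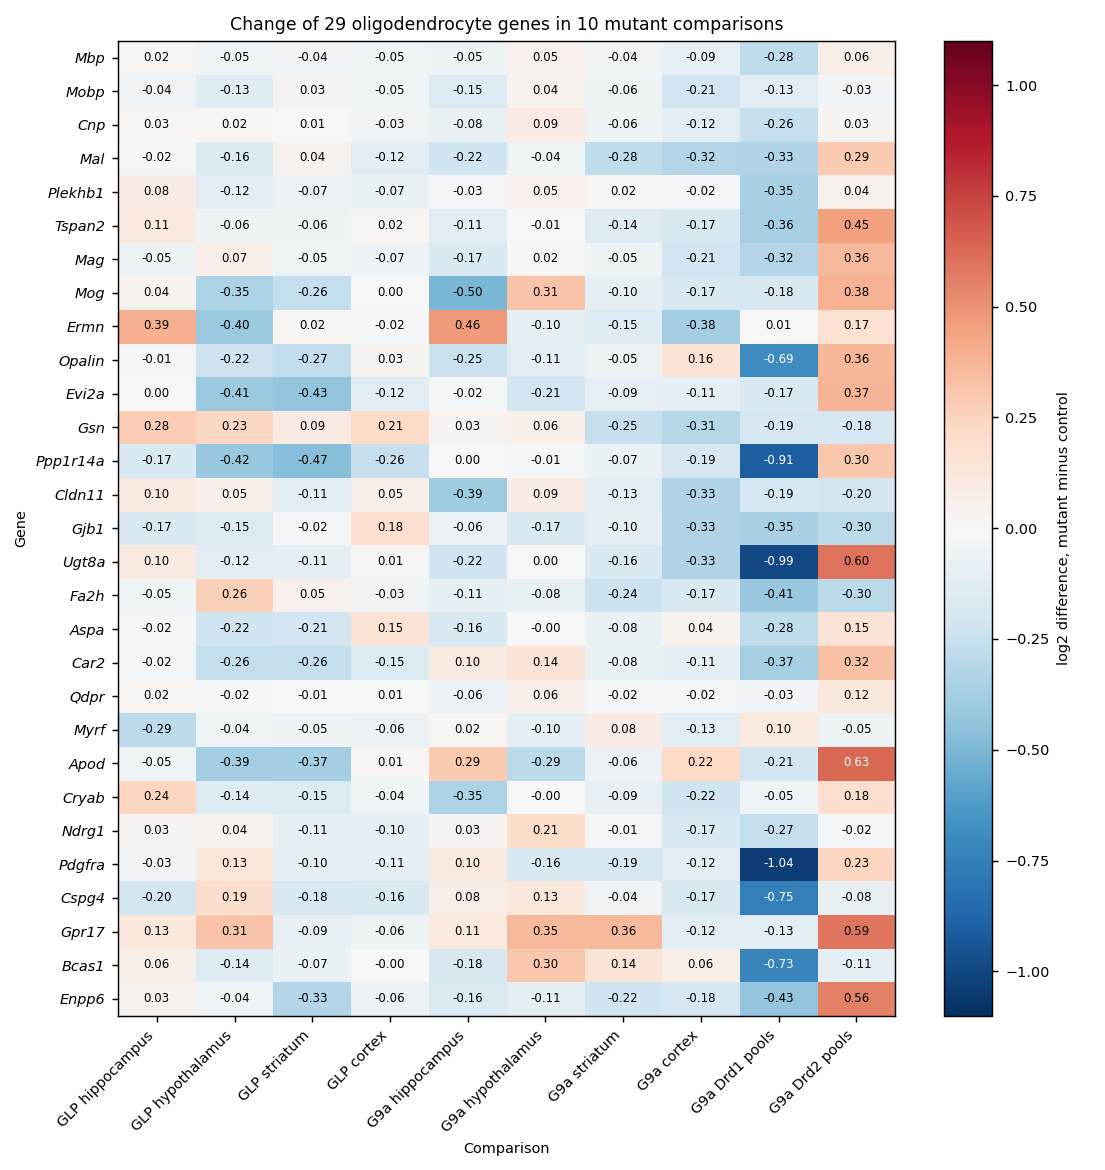
Difference in log2 intensity between mutants and controls (colour and printed value) for each of the 29 genes in the 8 tissue comparisons and the 2 comparisons of neuron pools. No cell has an adjusted p under 0.05; tissue values stay between -0.50 and 0.46, and those of the Drd1 pools reach -1.04.

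Ermn, which links the actin cytoskeleton to the outer myelin layer, was the gene with the smallest p in 4 of the tissue comparisons, in opposite directions. In GLP hippocampus it had 6.77, 6.86, 6.96 and 7.14 log2 units in mutants, against 6.67, 6.15, 6.49 and 6.84 in controls. The groups overlapped, and the difference was 0.39 (SE 0.14, adjusted p = 0.179). In G9a hippocampus it had 6.67, 6.52, 6.45 and 6.30 in mutants, against 6.27, 5.85 and 5.94 in controls. All mutants lay above all controls, but the difference of 0.46 (SE 0.15) had an adjusted p of 0.0825, and the dimmer Ermn probe set differed by 0.28 in the same comparison. Over 15 other settings its adjusted p ran from 0.0161 to 0.416 and was under 0.05 in 3 of them: with the replicate number as a block (0.53, adjusted p = 0.0211), with array weights, and without control 1.

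In GLP hypothalamus the order of Ermn was the reverse, with 7.12, 6.71, 6.82 and 7.28 in mutants, against 7.47, 7.48, 7.31 and 7.29 in controls. All mutants lay below all controls, with a difference of -0.40 (SE 0.14, adjusted p = 0.198). In G9a cortex it had 5.62 and 5.58 in mutants, against 6.18 and 5.78 in controls, again without overlap, with a difference of -0.38 (SE 0.19, adjusted p = 0.99996). A group of 2 arrays gives little information, and in that comparison 20 of 29 members did not overlap, against 45.7% of all genes tested. In the other tissue comparisons at most 1 member did not overlap. That was 1 each in GLP hippocampus, hypothalamus, striatum and cortex, against 6.98%, 2.91%, 5.82% and 9.99% of all genes tested, 1 each in G9a hippocampus and hypothalamus, against 12.4% and 3.81%, and 0 in G9a striatum, against 11.4%.

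In the other tissue comparisons the gene with the smallest p was not Ermn. Evi2a, a transmembrane protein of the lineage, had 5.00, 5.00, 5.24 and 4.98 in GLP striatum mutants, against 5.91, 5.15, 5.41 and 5.50 in controls, a difference of -0.43 (SE 0.16, adjusted p = 0.252). The groups overlapped by 1 array of each. Car2 had 6.69, 6.83, 6.88 and 6.77 in GLP cortex mutants, against 7.01, 6.89, 7.04 and 6.84 in controls, a difference of -0.15 (SE 0.12, adjusted p = 0.9997). Bcas1 had 7.37, 7.02, 7.09 and 7.38 in G9a hypothalamus mutants, against 6.81, 6.62, 6.97 and 7.26 in controls, a difference of 0.30 (adjusted p = 0.255), with overlapping groups. Pdgfra had 4.22, 4.21, 4.54 and 4.33 in G9a striatum mutants, against 4.45, 4.59, 4.37 and 4.63 in controls, a difference of -0.19 (SE 0.10, adjusted p = 0.435). Mog in G9a hippocampus had 4.15, 4.05, 5.09 and 4.92 in mutants, against 4.86, 5.16 and 5.16 in controls, and its difference of -0.50 (adjusted p = 0.321) rested on the first 2 mutants.

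That comparison held arrays that moved together. The mean over the 29 genes was 5.06, 5.09, 5.67 and 5.50 in the G9a hippocampus mutants, against 5.33, 5.40 and 5.46 in the controls. The mutants thus fell on both sides of the controls. In GLP hippocampus 9 of 12 choroid plexus genes were higher in mutants, among them Clic6, Slc4a5, Aqp1 and Kcne2, with a list mean of 3.03 to 3.77 in mutants, against 0.46 to 2.39 in controls. In G9a hippocampus 4 of 11 meningeal genes, Col1a2, Ptgds, Fmod and Lum, were higher, with a list mean of 1.72 to 3.10 in mutants, against 1.23 to 1.77 in controls. Their part in the values of the myelin genes was not tested.

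A few dimmer probe sets passed the test where the brightest of the same gene did not. A dimmer Mbp probe set was higher in G9a hippocampus mutants by 0.62 (SE 0.13, adjusted p = 0.00307), a dimmer Mobp probe set was lower in G9a hypothalamus mutants, at -0.94 (SE 0.27, adjusted p = 0.0428), and a dimmer Pdgfra probe set was higher in GLP hippocampus mutants by 0.85 (SE 0.22, adjusted p = 0.0241). They were singled out after their values were seen. Their adjusted p-values come from a limma fit of all probe sets, not of 1 per gene. The share of all probe sets called in that fit was not worked out.

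The change under GLP loss and the change under G9a loss were compared directly in each region as the difference of differences. None of the 29 genes was called in any of the 4 tests, in which 0.157%, 0.00831%, 0.00842% and 0.0168% of all genes were called in hippocampus, hypothalamus, striatum and cortex. At an unadjusted p under 0.05, 1 member passed in hippocampus, 4 in hypothalamus and 0 in striatum and cortex, against 4.92%, 8.47%, 6.5% and 1.04% of all genes tested. The smallest p-values belonged to Cryab in hippocampus (0.59, SE 0.24, adjusted p = 0.813), Car2 in hypothalamus (-0.41, adjusted p = 0.472), Evi2a in striatum (-0.35, adjusted p = 0.816) and Ermn in cortex (0.36). Of the other oligodendrocyte genes, Gltp, a glycolipid transfer protein, was higher in G9a hypothalamus mutants, as was Elovl5 of the myelin lipid list, and 0 others of these lists were called in the 8 tissue comparisons.

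The neuron pools are drawn from medium spiny neurons, so myelin transcripts in them are those that came down with the tagged polyribosomes. In the Drd1 pools labelled mutant, 27 of the 29 genes were below their control mean and 2 above it, where 38.8% of all genes tested were above. The median difference was -0.28, against -0.09 over all genes tested. The member mean was 5.46, 5.32 and 5.44 in mutant pools, against 5.68, 5.99 and 5.60 in control pools, which did not overlap. Ugt8a had 5.94, 5.61 and 6.13 in mutants, against 7.12, 7.14 and 6.38 in controls, a difference of -0.99 (SE 0.34, adjusted p = 0.943). The arrays did not overlap for 6 members, against 6.69% of all genes tested. Pdgfra stood apart in mutant pool 2, with 3.61, 1.16 and 3.45 in mutants, against 4.00, 3.84 and 3.50 in controls. Mutant pool 2 was also the lowest for the means of other lists. The astrocyte list had 4.72, 3.91 and 4.56 in mutant pools, against 4.92, 4.68 and 4.64 in control pools, which overlapped. The microglial list had 1.52, 0.80 and 1.26 in mutant pools, against 1.52, 1.59 and 1.64 in control pools. The part of these lists was not tested.

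In the Drd2 pools labelled mutant, in which Ehmt2 was not reduced, the median difference was 0.17, against 0.04 over all genes tested. Of the 29, 9 were below the control mean and 20 above it, where 57.3% of all genes tested were above. Ugt8a had 6.82, 7.54 and 7.43 in the pools labelled mutant, against 6.09, 6.54 and 7.36 in controls, a difference of 0.60 (SE 0.34, adjusted p = 0.9997). The groups overlapped for Ugt8a, and 2 members did not overlap, against 5.95% of all genes tested.

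Set against whole striatum of G9a fl/fl controls, the control pools of both kinds still held strong myelin signals, but the genes went separate ways. The pools hold polyribosome-bound mRNA and the striatum total RNA, so cell type and RNA type cannot be told apart, and both comparisons use the same 4 striatal arrays. In the Drd1 control pools 6 genes were higher and 11 lower than in striatum, where 66.2% of all genes tested were called, 54.1% higher and 12.1% lower. The median of the members was -0.26, against 0.63 over all genes tested. After each array was centred on the genes tested, a setting chosen after seeing the data, 2 were higher and 17 lower, and after quantile normalization 0 were higher and 18 lower. In the Drd2 control pools 8 were higher and 4 lower, where 61.7% of all genes were called, 54.7% higher and 7.02% lower, with a median of 0.10, against 0.60 over all genes. Centring gave 5 higher and 8 lower, and quantile normalization 3 higher and 10 lower. The arrays did not overlap with striatum for 16 members in the Drd1 pools, against 73.3% of all genes, and for 12 in the Drd2 pools, against 62.3%.

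Mobp was far below striatum in both kinds of pool. It had 6.61, 6.94 and 6.26 log2 units in Drd1 control pools and 6.60, 6.85 and 7.19 in Drd2 control pools, against 9.21, 9.29, 9.16 and 9.52 in striatum. Every pool lay below every striatal array, with differences of -2.69 (SE 0.18, adjusted p = 5.11e-07) for the Drd1 and -2.42 (SE 0.18, adjusted p = 2.85e-06) for the Drd2 pools. Bcas1 had 5.40, 5.90 and 5.92 in Drd1 pools and 6.46, 5.78 and 6.26 in Drd2 pools, against 7.35, 7.52, 7.48 and 7.86 in striatum, differences of -1.81 and -1.39. Apod had 4.54, 4.55 and 5.18 in Drd1 pools and 4.13, 6.06 and 5.61 in Drd2 pools, against 7.24, 7.20, 6.25 and 7.05 in striatum, differences of -2.18 and -1.67. Both genes were below striatum in all 6 pools.

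Cnp and Cryab lay above striatum by the probe sets used here. Cnp had 9.40, 9.91 and 9.56 in Drd1 pools and 9.78, 9.61 and 9.81 in Drd2 pools, against 8.69, 8.72, 8.81 and 8.99 in striatum, differences of 0.82 (adjusted p = 0.000211) and 0.93 (adjusted p = 0.000127). That direction was not shared by every probe set. The dimmest Cnp probe set was at -1.38 in Drd1 and -0.89 in Drd2 pools, and after quantile normalization the Drd1 value of the brightest was -0.25. Cryab differed by 1.21 and 1.38 through its brightest probe set and by -0.98 and -0.91 through a dimmer one, and Qdpr by 0.86 and 0.65 through its brightest and by -0.72 and -0.54 through its dimmer one. For Mobp a dimmer probe set was at 0.46 and 1.68, opposite to the brightest, for Bcas1 the dim ones ran from 1.08 to 1.64, and a dimmer Mbp probe set stood at -2.32 and -1.72, where the brightest stood at 0.19 and 0.06. For Cnp, Cryab, Qdpr, Mobp, Bcas1 and Mbp the direction against striatum therefore depends on the probe set.

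The kinds of neuron pool differed from each other in 7 genes of several roles. Of the 29, 7 were lower in Drd1 than in Drd2 control pools and 0 were higher, with a median difference of -0.43, against 0.01 over all genes tested, of which 15.4% were called, 7.7% higher and 7.65% lower. The arrays did not overlap for 10 members, against 41.3% of all genes. Gjb1 had 0.78, 0.64 and -0.06 log2 units in Drd1 control pools, against 2.92, 3.43 and 3.60 in Drd2 control pools, a difference of -2.86 (SE 0.31, adjusted p = 0.000122). The Drd1 values all lay more than 2 log2 units below the Drd2 values, which in turn overlapped the 3.30, 3.24, 2.96 and 3.69 of striatum, and the dimmer Gjb1 probe set gave -2.67.

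Myrf had 3.77, 3.84 and 3.73 in Drd1 control pools, against 6.37, 4.87 and 5.35 in Drd2 control pools, a difference of -1.75 (SE 0.32, adjusted p = 0.00409). Fa2h had 4.92, 5.08 and 4.65 in Drd1 control pools, against 6.44, 6.50 and 7.02 in Drd2 control pools, a difference of -1.77 (SE 0.29, adjusted p = 0.00215). Cldn11 had 5.60, 5.86 and 5.35 in Drd1 control pools, against 6.94, 6.49 and 7.29 in Drd2 control pools, a difference of -1.30 (SE 0.34, adjusted p = 0.0234). None of these 3 genes had an array in common between the kinds of pool. Gsn (-1.66), Plekhb1 (-1.20), a membrane-associated protein, and Ndrg1 (-0.91), a gene whose loss in people causes a demyelinating neuropathy, were also lower. Ermn (-0.04), Cnp (-0.11) and Mbp (0.13) differed least, with SEs of 0.40, 0.17 and 0.14.

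Against striatum the median over all genes tested was 0.60 in the Drd2 and 0.63 in the Drd1 control pools. Beside these medians, the same Drd2 pools were higher than striatum for Myrf (1.77, adjusted p = 0.000368, limma), Fa2h (1.27), Ppp1r14a (1.22), Opalin (1.14) and Ndrg1 (0.85). The Drd1 pools were at 0.02 for Myrf and at -0.49 for Fa2h. The comparisons share the pools or the striatal arrays, so these values are not independent of the ones between the pools. Other cell types moved between the pools as well: 10 of 36 other oligodendrocyte genes, among them Nfasc, Rhog, Erbb3 and Pllp, 5 of 14 microglial, 4 of 20 astrocyte and 4 of 12 endothelial genes were lower in Drd1 than in Drd2 control pools, with 0 higher in these 4 lists. Against striatum, 15 of 20 astrocyte, 14 of 15 microglial and 12 of 13 endothelial genes were lower in the Drd1 pools. In the Drd2 pools 10, 9 and 10 were lower. Of all genes tested, 12.1% were lower in the Drd1 and 7.02% in the Drd2 pools. General neuronal genes were higher for 10 of 15 and 9 of 16, against 54.1% and 54.7% of all genes tested. The part of these lists in the myelin values was not tested.

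**Figure D5:**
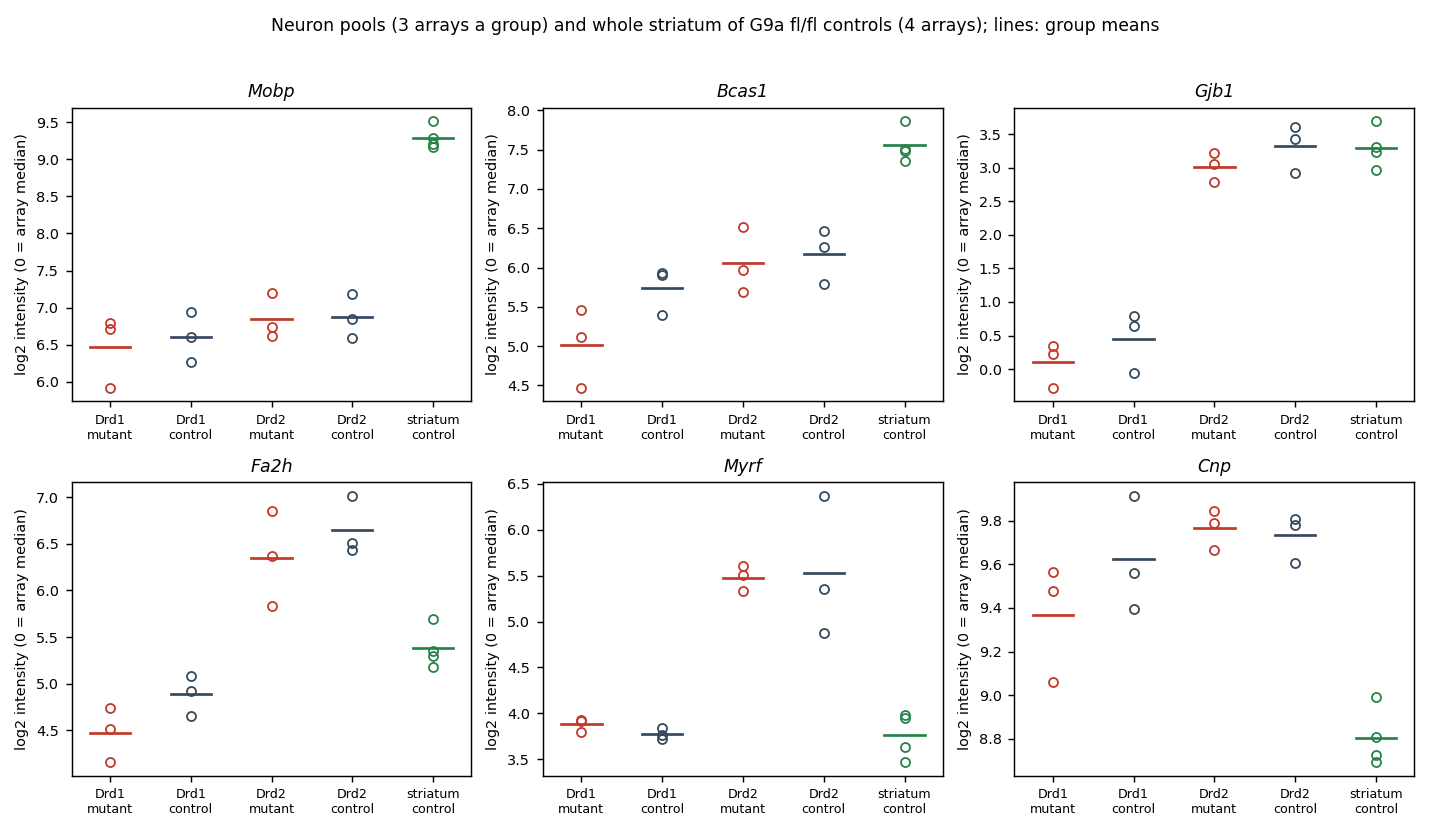
Log2 intensity (vertical axis) of Mobp, Bcas1, Gjb1, Fa2h, Myrf and Cnp in each Drd1 and Drd2 neuron pool, mutants left of controls, with the G9a fl/fl striatum controls at the right. Mobp and Bcas1 lie below striatum in every pool, and Gjb1, Fa2h and Myrf lie lower in Drd1 than in Drd2 control pools.

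Within groups of whole-tissue arrays the genes varied together from array to array. After each group mean was removed, the median correlation over the 406 pairs of members was 0.44 across 59 arrays, with 380 pairs above 0 and a range of -0.33 to 0.88. The arrays share dissection and scaling, so this is a description of these arrays. Bcas1 (0.92), Cnp (0.86) and Mag (0.85) followed the mean of the other members most closely, and Ppp1r14a (0.14), Apod (0.19) and Ermn (0.30) least. The median SD within a group was 0.25 log2 units for the members, against 0.188 for 11601 genes above the array median.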

How the data were processed

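The deposited table gives 1 linear intensity per probe set and array for 45101 probe sets on 71 arrays. Per the submitters' processing notes the authors made these intensities with GCRMA, whose version is not known here. Every array has a median of 1. Groups come from the titles and source names. The deposited intensities were used as log2, with no floor. Of the probe sets, 64 were controls, 34945 named 1 gene in the platform annotation, 932 named several and 9160 were unnamed.

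Each of 18193 genes was read by its probe set of highest mean. The model was limma 3.58.1's (R 4.3.3; eBayes with an intensity trend), with 59 tissue arrays in 1 fit, 12 pool arrays in another, and the control pools with the G9a fl/fl striatum controls in another. The test took genes with a log2 value above 0 in n or more of the compared arrays, n being the size of the smallest group, and p-values were adjusted over all genes tested. All 29 members passed in every comparison. Scripts were tested on simulated data.

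The members and the other gene lists were chosen with earlier results of these data known. Named were the member with the smallest p in each comparison of mutants, and the 5 largest, the 3 smallest and any contrary differences elsewhere; a few more are given for context. Replicate numbers of the titles were not used as pairs in the fits reported above. Same-numbered deviations correlated at 0.164, 0.384 and 0.484 in the Drd2 pools, and at 0.636, 0.427, -0.0097 and 0.398 in G9a hypothalamus. They ran from 0.065 to 0.293 in GLP hippocampus and from 0.058 to 0.251 in GLP cortex. In the other comparisons of mutants they lay between -0.304 and 0.378. The highest correlation of any pair of arrays was 0.998, and none was treated as a duplicate. The number of arrays limits the precision.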

Additional observations from a re-analysis of the deposited data

Results flagged for a closer look

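Of 91 groups of members by arrays that were tested for a single array standing apart, 6 had one, and chance flags about 1 in 20. GLP cortex control 3 had a member mean of 5.20 log2 units, against 4.96 to 4.98 in the other 3 controls, and Bcas1 at 7.45 there, against 7.03 to 7.10. GLP striatum mutant 3 had Car2 at 7.20, against 6.97 to 6.99 in the other mutants, and Evi2a at 5.24, against 4.98 to 5.00. G9a striatum control 3 had Evi2a at 4.33, against 4.89 to 4.99 in the other controls. GLP hippocampus mutant 4 had Pdgfra at 4.87, against 4.57 to 4.59 in the other mutants. Ermn differed in every mutant array the same way in G9a hippocampus, at 0.46 above controls, and the opposite way in G9a cortex, at -0.38, and the difference between these regions was not tested.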

How the results depend on the processing

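Counts of called members kept within 1.5 times of those reported in 426 recomputed comparisons and moved further in 11. With array weights, 2 members were called in GLP hippocampus (Ermn higher, Myrf lower) and 2 in G9a hippocampus (Cryab, Ermn). Weights also gave 4 in G9a hypothalamus (Apod, Cryab, Evi2a, Ppp1r14a) and 1 in G9a cortex (Ermn). In the fits reported above, 0 were called in each of these tissue comparisons. Between Drd1 and Drd2 control pools, weights gave 12 calls. The replicate block gave 1 call in G9a hippocampus and 0 in every other comparison of mutants, G9a hypothalamus and the Drd2 pools included. Leaving out 1 array at a time gave 0 to 1 calls in G9a hippocampus (1 without control 1, Ermn) and 0 to 1 in G9a hypothalamus (1 without mutant 2, Apod). The G9a fl/fl controls alone gave 9 calls for hypothalamus minus cortex and 9 for hypothalamus minus hippocampus, and the GLP fl/fl striatum controls gave 19 for Drd2 pools minus striatum. Signs turned as follows for values called before or after recomputing. With the mean of all probe sets: Pdgfra 0.27 and Mbp 0.0895 (hypothalamus minus cortex), Mobp 0.30 (hypothalamus minus hippocampus), Cspg4 -0.23 (striatum minus cortex), Bcas1 0.16 and Cnp -0.44 (Drd1 pools minus striatum), Bcas1 0.56 (Drd2 pools minus striatum). With the GLP fl/fl controls alone: Mbp 0.0052 (hypothalamus minus cortex), Mobp 0.32 (hypothalamus minus hippocampus), Pdgfra -0.21 (hypothalamus minus striatum), Car2 0.35 (striatum minus cortex) and 0.0447 (hippocampus minus cortex). With the G9a fl/fl controls alone: Pdgfra 0.28, Fa2h 0.22 and Cspg4 0.17 (hypothalamus minus cortex), Pdgfra 0.27 (hypothalamus minus hippocampus). With quantile normalization: Qdpr 0.15 (hypothalamus minus hippocampus), Cnp -0.25 and Qdpr -0.25 (Drd1 pools minus striatum), Mal -0.81 (Drd2 pools minus striatum). With the GLP fl/fl striatum controls: Ndrg1 0.39 (Drd1 pools minus striatum). The causes were not tested. The reversed signs aside, 1932 recomputed values of single members kept their side of the threshold. Their direction was kept too, save for uncalled values that crossed 0 by a shift under the gene's SD within groups. A further 13 uncalled values crossed 0 by a larger shift, 69 lost and 19 gained a call. Groups of 2 arrays and the median SE of 0.34 in the pools limit what could be called there.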
